A study of Mus musculus with 5 samples.

Results

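The 380 regions described here are the taller SOX9 peaks of the mouse atrioventricular canal (AVC) that have no counterpart in the limb list. SOX9 is a transcription factor of the HMG-box family, which binds in the minor groove of DNA and bends it. It is best known as the master regulator of cartilage, where it acts on enhancers of matrix genes together with SOX5 and SOX6. In the heart it is needed by the mesenchyme of the endocardial cushions, the swellings of the AVC from which the valves and septa form. A peak found in one SOX9-expressing tissue and not in another is a candidate for a tissue-specific binding site, and the study mapped AVC and limb side by side to ask this.

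Chromatin immunoprecipitation and sequencing (ChIP-seq) with a rabbit polyclonal SOX9 antibody was done on AVCs dissected from wild-type C57BL/6 hearts at embryonic day 12.5, and on wild-type C57BL/6 limb buds at the same stage. Unprecipitated chromatin (input) came from wild-type whole C57BL/6 hearts at embryonic day 10.5, an earlier stage and a larger piece of tissue, so it is a general background and not a matched control. Each of these groups had 1 sample and 1 peak list, on the mouse build mm9, and the spread between replicates is unknown. Peaks of 1 library are not replicates of a tissue, so comparisons are given as values with 95% intervals over peaks (Wilson for shares, binomial order statistics for medians), which cover counting error only, and no p-value is given.

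The 380 regions were selected by their deposited values. They are all AVC peaks with a height of at least 10 that share no base pair with a limb peak or with an input region, out of 2603 AVC peaks, and all of them are accounted for below. Height is the whole number that the authors' lists give for each peak, without a stated unit, and it was used only within a list. AVC peaks are listed from a height of 8, limb peaks from 28 and input regions from 20, so "AVC-only" means absent from the limb list at a height of 28 or more, and weaker limb binding at the same place was not analysed here. Of the 941 AVC peaks with a height of at least 10, 426 met no limb peak. Input regions covered 46 of these, which left the 380. The other tall peaks outside input regions, 461 in number, overlapped a limb peak and are called tall shared peaks. A further 1302 AVC peaks of height 8 or 9 met neither list and are called low AVC-only peaks. The cut-off runs through a dense part of the height range. Among AVC peaks that met neither list, 940 stood at height 8 and 362 at 9, just outside the rule, and 158 stood at 10 and 74 at 11, just inside it.

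The labels describe the AVC chromatin as valve mesenchyme, but a dissected AVC also holds muscle, endocardium and blood. The RNA of AVCs at the same stage from embryos of the genotype Sox9fl/fl:+/+ (floxed Sox9 without Cre, labelled WT) showed this in the authors' merged value of 2 libraries, given as normalized FPKM (nFPKM, fragments per kilobase of transcript, scaled to depth). Sox9 itself stood at 36.7 nFPKM, and all 5 mesenchyme markers were present, at 21.4 to 1840 nFPKM. The 4 cardiomyocyte markers stood at 118 to 11825 nFPKM, the 4 endothelial markers at 46.2 to 145 nFPKM, and the AVC markers Tbx2, Tbx3 and Bmp2 at 20.1 to 37.8 nFPKM. Erythroid globins (3 genes) reached 1291 to 26865 nFPKM, 3 epicardial markers 10.7 to 57.7 nFPKM and 3 macrophage markers 1.96 to 70.6 nFPKM. Of the 5 limb and cartilage markers, Col2a1 stood at 63.2 nFPKM and Acan at 0.829 nFPKM. Hoxd13, Hoxa13 and Hoxd12 were looked up but are not listed among the authors' expression values, so no level can be given. Which of these cells carried the SOX9 peaks is not given by the lists.

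AVC-only peaks were mostly low, and the share of AVC peaks without a limb counterpart fell with height, from 70.5% (158 of 224 peaks outside input regions, interval 64.3 to 76.1) at height 10 to 3.70% (3 of 81, interval 1.27 to 10.3) at height 30 and above. At height 11 it was 56.1%, at 12 to 14 it was 42.7%, at 15 to 19 it was 37.2% and at 20 to 29 it was 21.9% (21 of 96). Over all tall AVC peaks outside input regions the share was 45.2% (380 of 841, interval 41.9 to 48.6). The median height of the AVC-only peaks was 11, with the middle 90% between 10 and 21 and the tallest at 37. Tall shared peaks had a median of 15 and reached 188. Both height and overlap are part of the rule, so these values describe how the regions were made and are no finding about them.

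**Figure D1:**
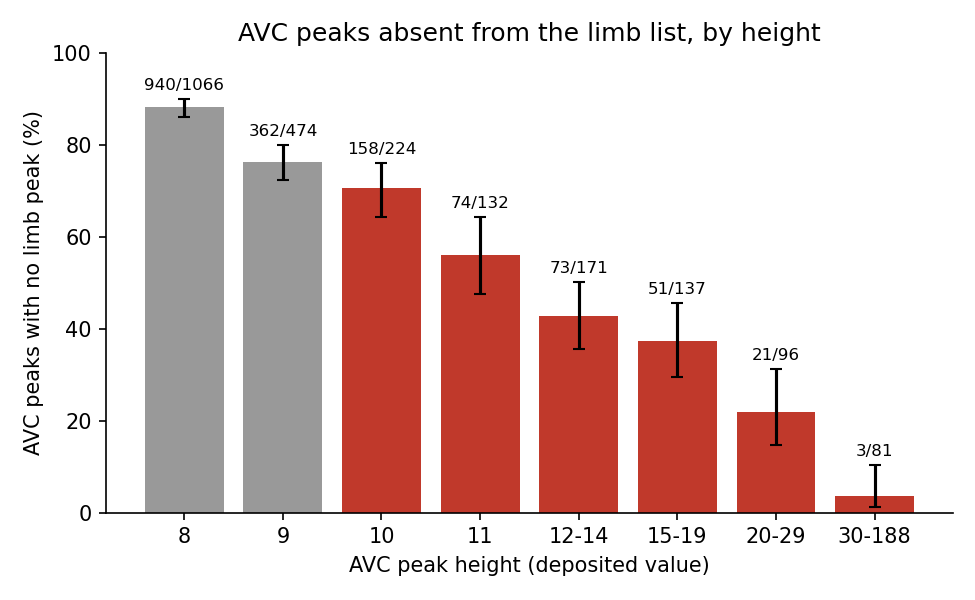
Share of AVC peaks outside input regions that overlap no limb peak (vertical axis, percent), by deposited AVC peak height (horizontal axis); red bars are the heights of the AVC-only peaks described here, grey bars the heights below the cut-off, error bars are Wilson 95% intervals and the numbers over the bars give the counts. The share goes from 70.5% at height 10 to 3.70% at heights of 30 and above.

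The tallest AVC-only peaks were scattered over several chromosomes, and all but the 2 at the start of chromosome 9 were at least 55.2 kb from any other AVC peak. All coordinates are mm9 and count from 1. The tallest, chr12:79451839-79452190, had a height of 37 and a width of 352 bp. Its nearest limb peak lay 120 kb away and its nearest shared AVC peak 2754 kb away. Next came chr9:56071357-56071834, with a height of 31 and a limb peak 9.78 kb away. The third, chr2:155767747-155768072, had a height of 30, and no other AVC peak lay within 1033 kb of it. These 3 were the only AVC-only peaks at or above a height of 30, where 78 tall shared peaks were found.

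The peaks chr7:140190406-140190735 (height 29), chr8:86280507-86280882 (height 28) and chr3:6115959-6116303 (height 27) followed. Limb peaks were 111, 41.3 and 113 kb from them. The chromosome 8 peak had the closest AVC neighbour of the 3, at 55.2 kb, and a shared peak of height 26 at 104 kb. At a height of 26 stood chr1:169270398-169270650, which was 537 kb from a limb peak and 1880 kb from any other AVC peak, and chr9:3009311-3009763, which belongs to the group on chromosome 9 described further on. The last of the 12 tallest had a height of 23. One of them, chr12:83390592-83390910, lay 3.18 kb from a limb peak of height 31, the shortest such distance among the named tall peaks. Another, chr9:10704337-10704561, was 225 bp wide and 211 kb from a limb peak. The 2 others were chr9:3012760-3013243, also of the chromosome 9 group, and a peak on chromosome 18. The named tall peaks thus stood anywhere from 3.18 to 537 kb from limb binding. Over all 380, the median distance to a limb peak was 104 kb at height 10 (interval 76.0 to 146) and 117 kb at height 20 and above (24 peaks, interval 68.6 to 322).

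Many AVC-only peaks were narrow. Their median width was 273 bp (interval 253 to 284), against 310 bp (305 to 316) for tall shared peaks and 281.5 bp (277 to 286) for low AVC-only peaks. Widths ran from 201 to 799 bp, with many peaks close to the lower end. A width of at most 220 bp, a limit set after the widths were seen, held for 113 of the 380 AVC-only peaks, or 29.7% (interval 25.4 to 34.5). It held for 9 of the 461 tall shared peaks, or 1.95% (1.03 to 3.67), and for 16.5% (14.6 to 18.6) of the low AVC-only peaks. A narrow peak covers fewer bases that a limb peak can meet, so width is not fully independent of the rule, and this part of the difference was not tested.

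**Figure D2:**
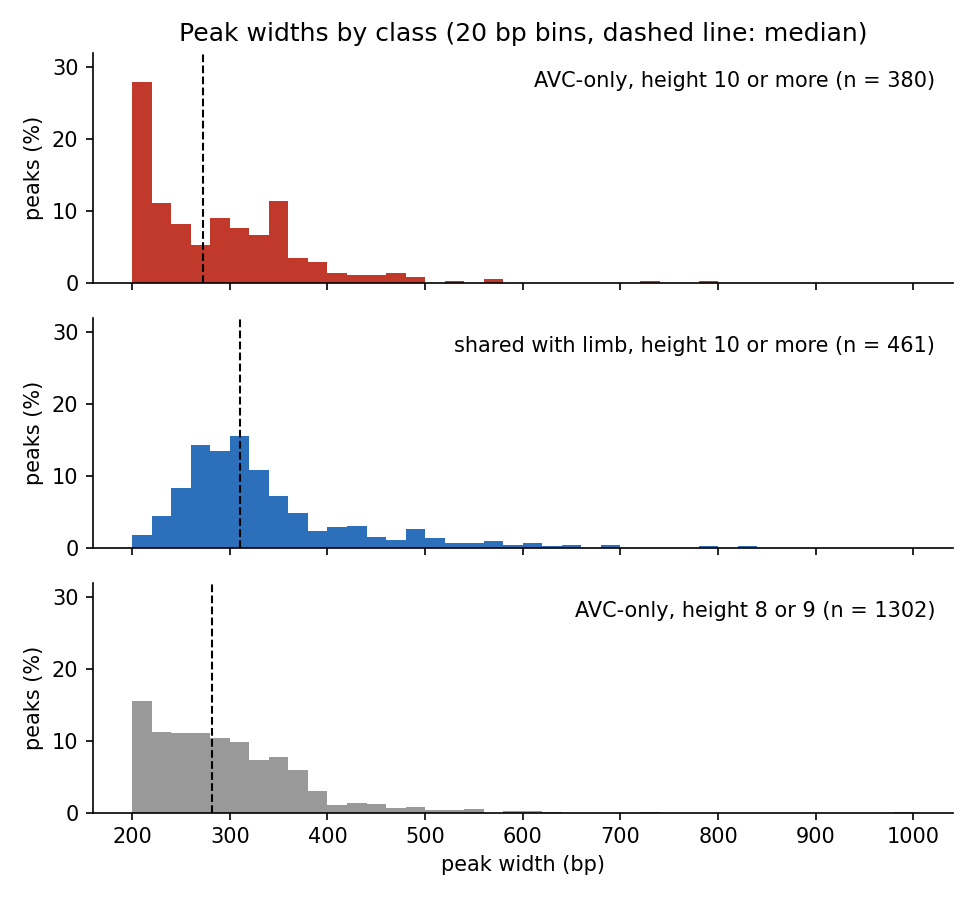
Widths of AVC peaks (horizontal axis, bp) as the percentage of peaks in each class per 20 bp bin (vertical axis), for AVC-only peaks of height 10 or more (380), tall shared peaks (461) and AVC-only peaks of height 8 or 9 (1302), all outside input regions; dashed lines are medians. The first bin is tallest in the 380 AVC-only peaks, whose median of 273 bp lies below the 310 bp of shared peaks.

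Narrow AVC-only peaks were found in each height range examined. At height 10, 55 of 158 AVC-only peaks were at most 220 bp wide (34.8%, interval 27.8 to 42.5), against 3 of 66 shared peaks of the same height (4.55%, 1.56 to 12.5). At heights 15 to 19 the counts were 14 of 51 (27.5%, 17.1 to 40.9) and 1 of 86 (1.16%, 0.206 to 6.30). At a height of 20 and above 4 of 24 AVC-only peaks (16.7%, 6.68 to 35.9) and 0 of 153 shared peaks were narrow (Wilson interval 0 to 2.45, while 3 counts of 153 are 1.96%). The intervals of AVC-only and shared peaks were apart at each of these heights. In the range of 20 and above heights are not matched, since it reaches 37 in AVC-only and 188 in shared peaks. Medians were closer than these shares. At height 10 the median width was 251.5 bp (239 to 272) in AVC-only and 307 bp (276 to 332) in shared peaks, while at 20 and above it was 329.5 bp (253 to 352) and 305 bp (297 to 317). Among AVC-only peaks width rose little with height (Spearman 0.17, Pearson 0.17, over 380 peaks of 1 library), and among tall shared peaks the coefficients were 0.01 and -0.01.

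The widest AVC-only peaks were chr12:100883213-100884011 (799 bp, height 16), chr10:80236919-80237650 (732 bp, height 12) and chr9:13347583-13348158 (576 bp, height 10). Their nearest limb peaks were 148, 18.9 and 17.4 kb away. The narrowest, at 201 bp each, were chr9:3010883-3011083 (height 12), chr16:51673248-51673448 (height 10) and chr6:148671760-148671960 (height 10). For these the nearest limb peaks were 324, 321 and 8.28 kb away.

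Narrow AVC-only peaks stood farther from limb binding than the other AVC-only peaks. The 113 peaks of at most 220 bp had a median distance to a limb peak of 188 kb (interval 125 to 321), and the other 267 one of 83.8 kb (66.8 to 103). Within 50 kb of a limb peak lay 21.2% of the narrow peaks (24 of 113, interval 14.7 to 29.7) and 39.7% of the others (106 of 267, 34.0 to 45.7). Windows of 50 kb on either side of limb peaks cover 25.9% of the chromosome spans, measured from the first to the last region of any list. This coverage lies inside the interval of the narrow peaks and below that of the others. Distances to shared AVC peaks had overlapping intervals, with medians of 2292 kb (1618 to 2995) for narrow and 1388 kb (1153 to 1784) for other peaks. Distances to input regions were longer for the narrow peaks, at 96.9 kb (73.7 to 118) against 55.6 kb (41.6 to 65.6). Low AVC-only peaks, which the height rule left out, gave a smaller gap. There the medians to a limb peak were 141 kb (105 to 202) for 215 narrow and 98.7 kb (84.9 to 112) for 1087 other peaks, with intervals that overlap, and the shares within 50 kb were 29.8% (24.1 to 36.2) and 34.9% (32.1 to 37.8).

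AVC-only peaks were spread more evenly over chromosomes than shared peaks, and so were low AVC-only peaks, so this is not particular to the 380. Chromosome 17 held 3.42% of the 380, 7.16% of tall shared peaks and 4.53% of low AVC-only peaks. On chromosome 11 these shares were 5.00%, 8.68% and 4.22%. Every chromosome but Y held some, from 9 on chromosome 19 to 36 on chromosome 1, and chromosomes 1, 2, 6 and 3 together held 120 of the 380. Per 100 Mb of chromosome span their number ran from 7.99 on X and 9.37 on chromosome 5 to 20.6 on chromosome 9 and 21.6 on chromosome 18. Tall shared peaks ran from 7.37 on X to 35.8 on chromosome 17. Over the 20 chromosomes these densities showed almost no relation (Spearman coefficient -0.05, Pearson 0.03), a description over chromosomes of 1 library. Against low AVC-only peaks the coefficients were 0.03 and 0.21.

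The balance of AVC-only and shared peaks differed between chromosomes. Among tall peaks outside input regions, 64.3% were AVC-only on chromosome 1 (36 of 56, interval 51.2 to 75.5), 61.0% on chromosome 9 (interval 45.7 to 74.3), 60.5% on chromosome 3 (45.6 to 73.6), 58.3% on chromosome 6 (44.3 to 71.2), 55.9% on chromosome 13 and 54.3% on chromosome 18. Chromosome 17 had 28.3% (13 of 46, interval 17.3 to 42.5) and chromosome 11 had 32.2% (19 of 59, 21.7 to 44.9), and chromosomes 19 and 8 had 31.0% and 32.6%. The intervals of chromosomes 1, 3, 9, 11 and 17 did not hold the 45.2% of all chromosomes. They are not adjusted for the 20 chromosomes looked at. On chromosome 9 the value was 54.3% (19 of 35, interval 38.2 to 69.5) without the group of peaks near its start, and that interval does hold 45.2%. Neither end of the chromosomes held a large part of the peaks. The first 10 Mb of the spans held 10.3% of AVC-only peaks (39, interval 7.60 to 13.7) and the last 10 Mb 6.84% (26, 4.71 to 9.84), where each makes up 7.77% of the spans. Tall shared peaks gave 9.76% and 10.8%.

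**Figure D3:**
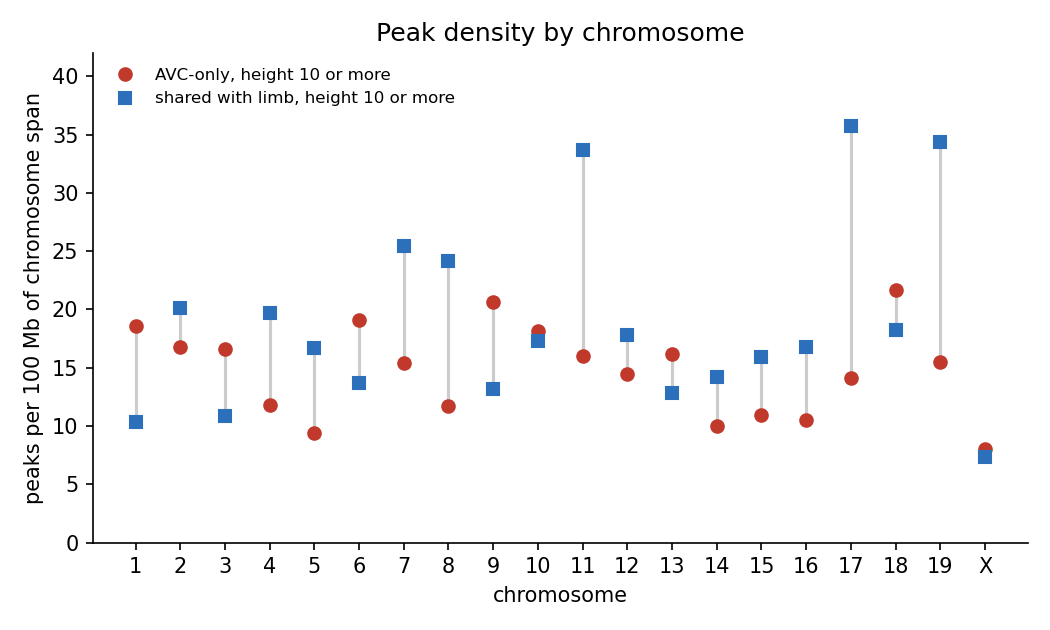
Number of peaks per 100 Mb of chromosome span (vertical axis) on each chromosome (horizontal axis), for AVC-only peaks of height 10 or more (red circles) and tall shared peaks (blue squares), outside input regions; grey lines join the 2 values of a chromosome. Shared peaks reach 35.8 on chromosome 17, while AVC-only peaks lie between 7.99 and 21.6.

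Most AVC-only peaks had no other of the 380 within 50 kb, and the share expected from their number alone was not computed. Their median distance to the next AVC-only peak of the same kind was 2449 kb (interval 2143 to 2772), and 12 of 380 (3.16%, interval 1.82 to 5.44) had another within 50 kb. One of the 380 also lay within 50 kb of 1.95% of tall shared peaks (1.03 to 3.67) and 2.00% of low AVC-only peaks (1.37 to 2.91). These intervals overlap that of the 380. Chaining peaks at most 50 kb apart left 368 single peaks, 3 pairs and 1 group of 6. One pair, chr2:32901420-32901743 (height 12) and chr2:32910720-32910926 (height 10), had 8.98 kb between its peaks and a limb peak of height 36 at 27.5 kb. Another, chr11:95895737-95895990 (height 10) and chr11:95942315-95942664 (height 13), had 46.3 kb between its peaks and flanked a limb peak, chr11:95936899-95937176, of height 65. The remaining pair lay on chromosome 18. Including AVC peaks of any class, 52 of 380 (13.7%, interval 10.6 to 17.5) had a neighbour within 50 kb and 58 had none within 1 Mb. For tall shared peaks the share with an AVC neighbour within 50 kb was 19.3% (16.0 to 23.2), and for low AVC-only peaks 14.7% (12.9 to 16.8). Windows of 50 kb on either side of all AVC peaks cover 9.26% of the chromosome spans, below each of these intervals.

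The group of 6 lay at the very start of chromosome 9, between dense input regions. Its peaks, from chr9:3009311-3009763 to chr9:3014167-3014411, fell within 5101 bp and had heights of 26, 12, 21, 17, 23 and 21 in order of position. Of the 24 AVC-only peaks with a height of 20 or more, 4 belonged to it. Each of its 6 peaks had an input region within 159 to 2003 bp, and each had input regions on both sides within 5 kb. Within 12 kb of the group stood 38 input regions, with heights from 21 to 268 (median 72, in a list that starts at 20) and a median width of 210.5 bp, against 6703 bp over all input regions. The 2 closest to the group were low, with heights of 22 and 37. The one of height 37 lay inside the group, between its first and second peaks. A taller one, chr9:3015247-3015470, with a height of 145, lay 835 bp from the last peak. On the other side stood chr9:2999997-3001226, with a height of 255. The tallest, chr9:3026123-3027096, lay at the far end of this stretch. The nearest limb peak was 321 to 326 kb away. Input regions thus stand around and between these peaks without touching them by the rule of 1 bp, and their part in the peaks was not tested. Of the 10 AVC-only peaks with another within 10 kb, 6 were of this group. Without it 4 of 374 (1.07%, interval 0.417 to 2.72) had such a neighbour, the share within 50 kb went from 3.16% to 1.60%, and no group of 3 or more was left.

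**Figure D4:**
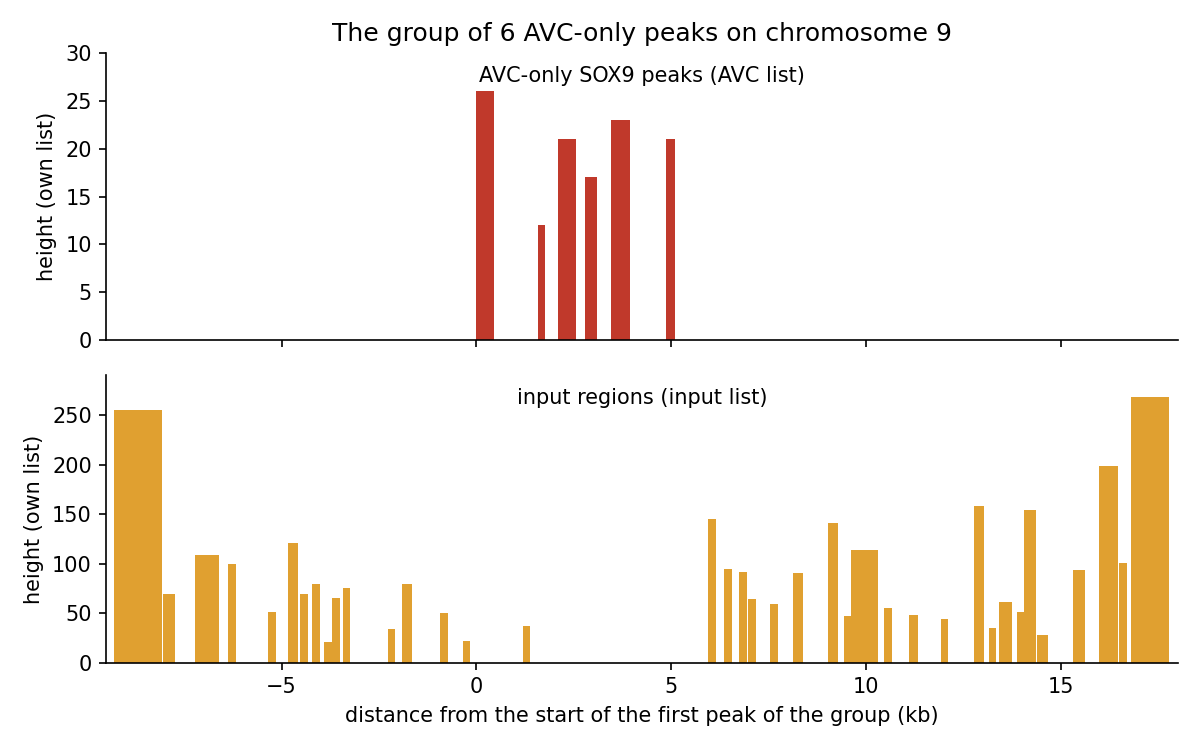
Heights (vertical axes, deposited values of each list, not comparable between the panels) of the 6 AVC-only peaks (upper panel) and of input regions (lower panel) against the distance in kb from the start of the first of the 6 peaks (horizontal axis); the width of a bar is the width of the region. The 6 peaks span 5101 bp, and input regions stand on both sides of them.

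Few AVC peaks of any class were close to input regions, so this is not particular to the 380. Within 1 kb of one lay 9 of 380 AVC-only peaks (2.37%, interval 1.25 to 4.44), and 5 of 374 (1.34%, 0.572 to 3.09) without the group. The share was 1.74% (0.882 to 3.39) for tall shared peaks and 2.07% (1.43 to 3.00) for low AVC-only peaks. The median distance to an input region was 65.8 kb (55.5 to 76.3) for AVC-only peaks, 50.6 kb (43.0 to 61.6) for tall shared peaks and 63.8 kb (58.3 to 69.9) for low AVC-only peaks. Among AVC-only peaks of height 20 and above 5 of 24 (20.8%, interval 9.25 to 40.5) were within 5 kb of an input region, and 1 of 20 (5.00%, 0.888 to 23.6) without the group. At heights of 10 and 11 this was 14 of 232 (6.03%, 3.63 to 9.87).

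Limb peaks lay at widely different distances from AVC-only peaks. The median distance was 101 kb (interval 84.4 to 121), with quartiles at 33.5 and 321 kb. For low AVC-only peaks the median was nearly the same, at 106 kb (91.8 to 117). For tall shared peaks, leaving out limb peaks they overlap, the nearest limb peak was 52.5 kb away (47.5 to 60.2). Within 50 kb of a limb peak lay 34.2% of AVC-only peaks (130 of 380, interval 29.6 to 39.1) and 34.0% of low AVC-only peaks (31.5 to 36.6), against the 25.9% of the chromosome spans given above. For shared peaks 47.9% had another limb peak within 50 kb (43.4 to 52.5). At 10 kb the values were 10.3% of AVC-only peaks (39 of 380, 7.60 to 13.7), 9.37% of low AVC-only peaks (7.90 to 11.1), 8.46% of shared peaks (6.25 to 11.4) and 6.68% of the spans. The intervals of taller and low AVC-only peaks overlapped at both distances. Those of AVC-only and shared peaks were apart at 50 kb and overlapped at 10 kb.

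The limb peaks nearest to AVC-only peaks were of ordinary height. Their median height in the limb list was 36 (interval 36 to 38), against 38 (38 to 39) over all 9089 limb peaks. Of the 380, 28 had no limb peak within 1 Mb, and 10 of these (2.63% of 380, interval 1.44 to 4.78) had no other AVC peak within 1 Mb either. A limb peak lay within 1 Mb of 92.6% of the 380 (89.6 to 94.9) and 93.7% of low AVC-only peaks (92.25 to 94.9). For tall shared peaks 99.6% had another limb peak that close, and such windows cover 89.9% of the chromosome spans.

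A few AVC-only peaks were direct neighbours of limb peaks, in a share near that of low AVC-only peaks. Within 1 kb of one lay 7 of 380 (1.84%, interval 0.895 to 3.75) and 1.69% of low AVC-only peaks (1.12 to 2.545). For tall shared peaks 1.085% had another limb peak this close (0.464 to 2.51), and such windows cover 0.807% of the chromosome spans. The closest of the 7, chr1:95239889-95240274 (height 10), was 260 bp from chr1:95239314-95239628, a limb peak of height 31. Then came chr4:133314000-133314335 (height 10), 282 bp from a limb peak of height 52. At 334 bp from a limb peak of height 29 stood chr17:12983744-12983981, with an AVC height of 17, and at 432 bp chr10:14203067-14203339 (height 10). These are the regions just inside the overlap rule. Just outside it, 2 of the 461 tall shared peaks overlapped their limb peak by fewer than 50 bp, the smallest overlap being 9 bp, while the median overlap was 254 bp. Few peaks were therefore near this border of the rule.

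At the other extreme stood chr1:102941795-102942008 (height 16), 3039 kb from the nearest limb peak. It was followed by chrX:3846599-3846944 (height 10, 2744 kb), chr1:48422834-48423044 (height 13, 2473 kb) and chr7:67014689-67014967 (height 10, 2362 kb). The first and the third of these were narrow, at 214 and 211 bp. The peak on chromosome 7 had an input region at 6.99 kb.

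Few AVC-only peaks had a shared AVC peak close by. Both the 380 and the low AVC-only peaks exceeded the coverage of such windows at 50 kb. Taking all 699 AVC peaks outside input regions that overlap a limb peak, of any height, the median distance from an AVC-only peak was 1671 kb (interval 1341 to 2024), close to the 1648 kb (1472 to 1826) of low AVC-only peaks. Shared peaks stood closer to one another. The median distance from a tall shared peak to another shared peak was 511 kb (443 to 618), and 18.9% (15.6 to 22.7) had one within 100 kb, against 5.79% of AVC-only peaks (22 of 380, 3.85 to 8.61). Windows of 100 kb on either side of shared peaks cover 4.94% of the chromosome spans. This coverage lies inside the interval of the 380 and below that of low AVC-only peaks (8.07%, 6.71 to 9.67). At 50 kb there were 20 AVC-only peaks (5.26%, interval 3.43 to 7.99), where such windows cover 2.58% of the spans, below this interval. For low AVC-only peaks the share was 4.455% (3.46 to 5.72), also above the coverage. Another 110 (28.9%, 24.6 to 33.7) had a limb peak within 50 kb but no shared peak. No limb peak and no other AVC peak stood within 50 kb of 233 peaks (61.3%, 56.3 to 66.1). Neither of these shares was computed for the other classes or for the chromosome spans.

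**Figure D5:**
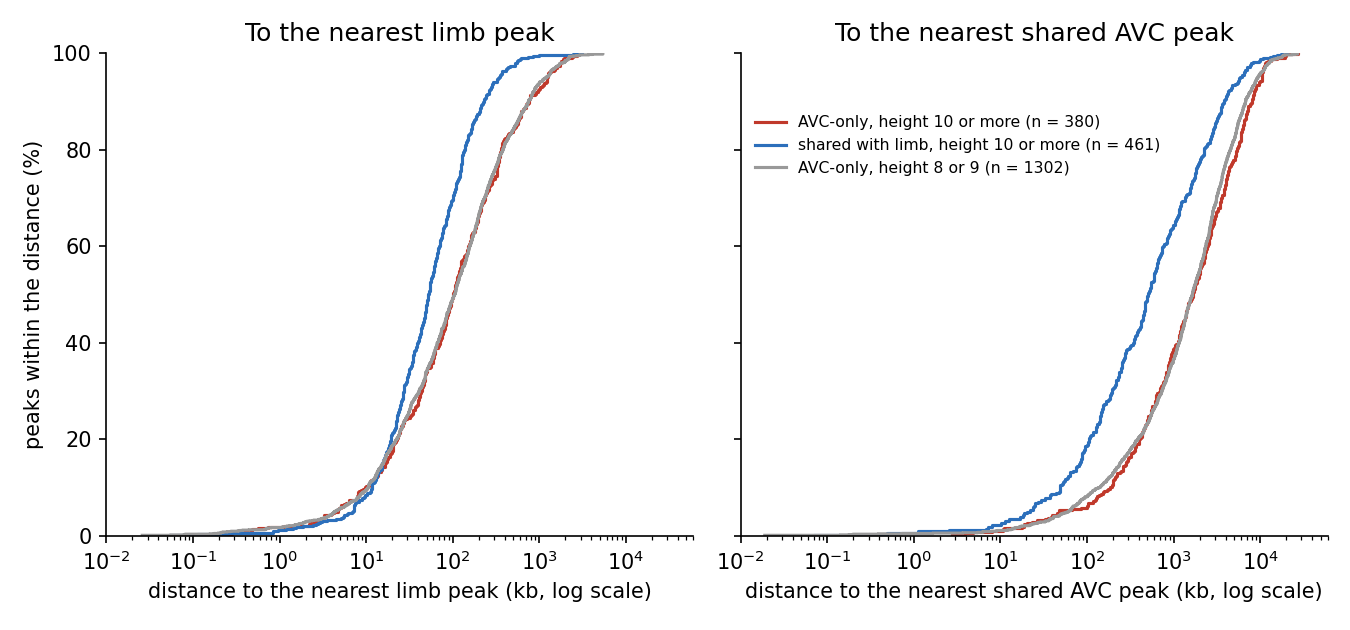
Percentage of peaks (vertical axis) that have a limb peak (left) or a shared AVC peak (right) within a given distance (horizontal axis, kb, log scale), for AVC-only peaks of height 10 or more (red), tall shared peaks (blue; limb peaks they overlap are left out) and AVC-only peaks of height 8 or 9 (grey). The red and grey curves run together, with medians of 101 and 106 kb to a limb peak, and at 50 kb the blue curve on the left stands at 47.9% where they stand at 34.2% and 34.0%.

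The AVC-only peaks closest to a shared AVC peak were low to moderate in height. The peak chr13:23663037-23663275 (height 10) lay 2.77 kb from a shared peak of height 8 and 337 bp from an input region. The peak chr11:69230919-69231272 (height 12) lay 3.94 kb from a shared peak of height 9, whose place the limb list marks with a peak of height 116. On chromosome 19, chr19:6241226-6241582 (height 13) lay 4.79 kb from a shared peak of height 9. The AVC-only peaks have a height of at least 10 by the rule, and shared peaks were taken from a height of 8, so the order of heights in these pairs is set by the choice. Within 1 kb of a shared peak lay 0 of 380 AVC-only peaks (Wilson interval 0 to 1.00, while 3 counts of 380 are 0.789%). Such windows cover only 0.0633% of the chromosome spans, and the share of low AVC-only peaks was 0.461% (6 of 1302, interval 0.211 to 1.00). These intervals overlap, so the count of 0 does not set the 380 apart.

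Genes, base composition and SOX motifs at the 380 regions were not analysed here, since no sequence or annotation of mm9 was used.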

How the data were processed

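Groups were taken from sample titles and genotype labels. The deposited peak lists give a chromosome, start, end and whole-number height, treated as signal. Per the submitters' processing notes, reads were aligned with tools that include BWA, on mm9. No source used here names the peak caller or the unit of the height, and read depth is unknown. Expression values are the authors' normalized FPKM, deposited as 1 merged value per genotype, and the authors' log2 fold change in the same table was not used here. Repeated limb lines (636 of 9725) were dropped. Distances count the bases between peak edges. Named regions were the 12 tallest, the widest 3 and narrowest 3, those grouped within 50 kb, the 4 closest to and 4 farthest from limb peaks and the 3 closest to shared peaks; chromosome 18 was counted but not named. The regions, rules and lists were chosen with earlier results of these data known. Alternatives changed the height minimum, overlap, limb height, input filter, window and distance measure. Motif and gene steps were planned only with an mm9 genome and were not run. Computations ran in Python 3.11.15 with scipy 1.17.1, pandas 2.3.3, numpy 2.4.6 and, for plots, matplotlib 3.10.9, and distances and groups were tested on simulated data.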

Additional observations from a re-analysis of the deposited data

How the results depend on the processing

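Of 64 values recomputed under an alternative, 50 stayed within the 95% interval of the reported value or, for counts, within 1.5 times of it. The height minimum mattered most. With a minimum of 12 there were 148 regions, 30.5% of tall peaks were AVC-only and the median width was 293 bp. With 20 there were 24 regions, 13.6% were AVC-only and the median width was 329.5 bp. Another lay within 50 kb of 16.7% of them (interval 6.68 to 35.9), and these were the 4 peaks of the chromosome 9 group. The median distance to a shared peak, with those 4 peaks included, was 2313 kb. Its interval, 852 to 6880 kb, holds the reported 1671 kb. With only limb peaks of height 40 or more, 52.3% were AVC-only and the median distance to a limb peak was 212 kb, since fewer limb peaks enter. Added after seeing the data, leaving out AVC peaks within 5 kb of an input region or those in the first 3.1 Mb of chromosome 9 gave 1.69% and 1.60% with another within 50 kb, and 0 groups of 3 or more in either case. The motif and gene alternatives were not run. No paired analysis was possible because each group has 1 sample. Depth is unknown, so a place missing from the limb list may hold weaker limb signal.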
